A study of Mus musculus with 26 samples.

Results

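The receptors described here are 10 receptor tyrosine kinases other than ALK and the ERBB family, grouped as candidates to bypass a blocked driver kinase. They are Met, Axl, Igf1r, Insr, Fgfr1, Fgfr2, Fgfr3, Kit, Ddr1 and Pdgfrb. They were taken by gene symbol, without regard to case, and all 10 were found among the 55391 rows of the deposited count table that name a gene. RNA was sequenced from 3 lung cancer cell lines of C57BL/6 mice with an EML4-ALK fusion (EA1, EA2 and EA3), grown in culture and given 100 nM alectinib, an ALK tyrosine kinase inhibitor (TKI), or 0.1% DMSO as control. Each line and treatment gave 1 library on each of days 1, 2, 3 and 5 by the sample titles, for 24 libraries in all, whereas the treatment text of the labels lists days 1, 3, 5 and 7. The titles were followed here, and the values by day rest on them. Each time point is thus 1 culture per line and treatment, so the days served as replicates and p-values measure the spread over days only.

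The tests compared alectinib with DMSO within each line, the alectinib effect between lines and over days, and the DMSO level between lines and over days. Levels are given as CPM, the counts of a gene scaled to library size with edgeR's TMM factors, and the threshold is an adjusted p-value of 0.05. Library totals ran from 5780062 to 11732401 counts, and 3 counts in a library were set as the floor, which corresponded to 0.248 to 0.519 CPM and covers counting error only. A further pair of libraries is labelled EA3 day 7, but their expression correlated with EA2 (r = 0.967 for DMSO and 0.986 for alectinib, across 14335 genes of the same treatment) more closely than with EA3 (r = 0.887 and 0.876). Their Fgfr1 levels, at 252 and 142 CPM, also lay beyond the 65.7 CPM that was the highest value in EA3 and within the 125 to 271 CPM of EA2. The pair was therefore left out of the values that follow. As a check of the labels, the epithelial keratin Krt18 was abundant in the DMSO cultures of all 3 lines, at means of 1885, 1600.0 and 1669 CPM in EA1, EA2 and EA3. Other genes of the list of 8 epithelial markers were uneven. Epcam was at 1.38, 0.488 and 134 CPM in the 3 lines, Cldn4 at 0.286, 0 and 125 CPM and Krt7 at 45.4, 0.213 and 874 CPM, and the alveolar lineage factor Nkx2-1 was at 0 counts in every DMSO library.

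Receptor tyrosine kinases span the plasma membrane, and most, though not all, pair only when a ligand binds. The paired receptors phosphorylate each other's tails, and the phosphorylated sites recruit adaptors that feed the RAS-MAPK and PI3K-AKT pathways. An oncogenic fusion such as EML4-ALK drives the same pathways without a ligand. When its kinase activity is blocked, another receptor can restore the signal, through more receptor, more ligand or weaker attenuation of either. MET amplification, AXL and IGF1R are among the routes known in lung cancers treated with a TKI. Transcript counts report the amount of mRNA and not the activity of the receptor.

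The receptors differed widely in abundance before drug. Levels per kilobase of exons can be compared between genes. By this measure Axl had the highest mean of the 10 in the DMSO cultures of each line. Its means were 145 ± 17.7 CPM per kilobase in EA1 (SD, n = 4 days), 158 ± 5.23 in EA2 and 95.2 ± 30.8 in EA3. Axl encodes a receptor for Gas6 that is associated with mesenchymal tumor cells and tolerance of TKIs. It made up 70.0% ± 2.11 of the summed level of the 10 transcripts in EA1, 69.8% ± 1.81 in EA2 and 50.4% ± 9.87 in EA3. In EA1 the order continued with Ddr1 (29.1 CPM per kilobase), Met (11.2), Igf1r (9.0), Insr (7.41), Pdgfrb (3.62), Fgfr1 (1.66), Fgfr3 (0.207), Fgfr2 (0.0640) and Kit (0.00315). Among these neighbors in EA1, the pairs from Met to Fgfr1 overlapped over the 4 days, while Axl stood clear of Ddr1 and Ddr1 of Met. In EA2, Fgfr1 (21.6), Ddr1 (20.7) and Met (17.1) came next and overlapped in turn. In the day 5 DMSO library of EA3 the order was reversed, with Ddr1 at 63.3 and Axl at 56.3 CPM per kilobase.

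**Figure D1:**
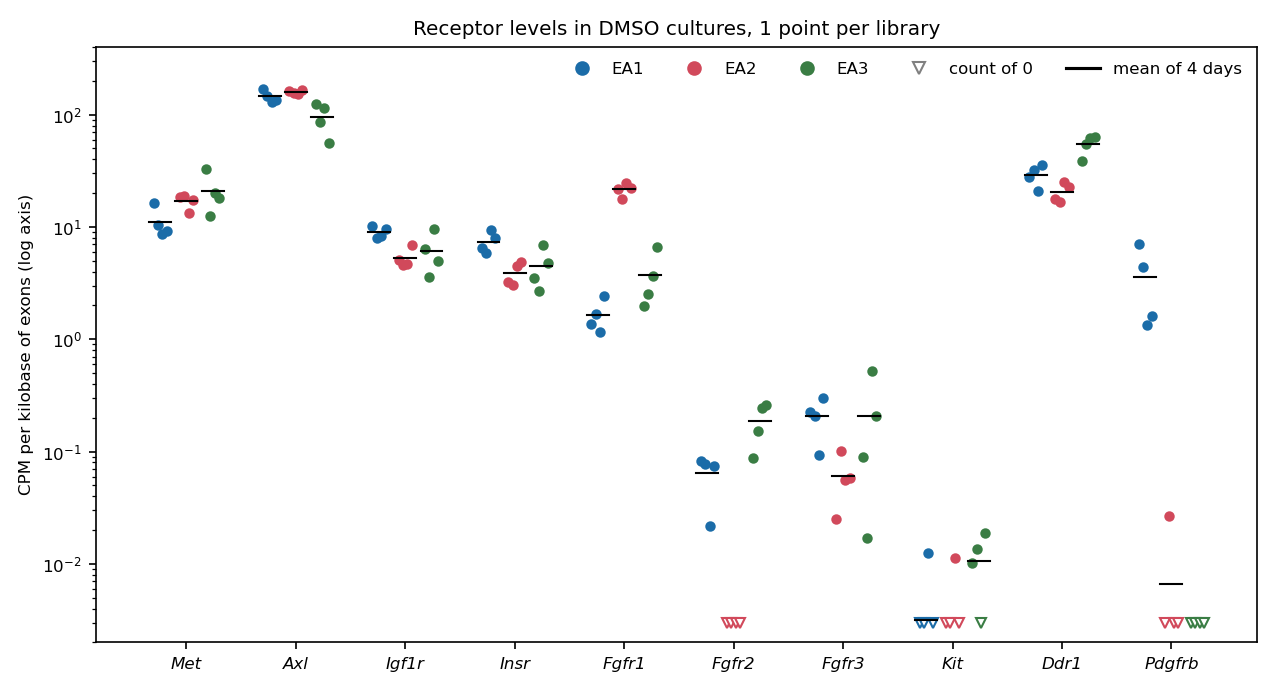
The vertical log axis gives the level of each receptor in DMSO cultures as CPM per kilobase of exons, with 1 point per library, a bar at the mean of 4 days and an open triangle for a library with a count of 0. The mean of Axl lies highest in each line (95.2 to 158), Fgfr1 is highest in EA2 (mean 21.6), and Pdgfrb is well above the floor in EA1 only (mean 3.62).

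Between lines, 7 of the 8 receptors that passed the filter on low counts in the 12 DMSO libraries differed in level (edgeR's quasi-likelihood test with 2 degrees of freedom), where 55.6% of the 12886 genes tested did. Fgfr2 and Kit were too low to be tested there. The 3 pairwise comparisons share libraries. EA2 differed from EA1 in 5 receptors (40.8% of all genes), EA3 from EA1 in 6 (32.6%) and EA3 from EA2 in 3 (36.5%).

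Fgfr1, the FGF receptor most often expressed in mesenchymal cells, separated the lines most clearly among receptors with counts in every library. Its DMSO levels on days 1, 2, 3 and 5 were 13.4, 16.5, 11.4 and 24.2 CPM in EA1, 213, 176, 244 and 220.5 CPM in EA2, and 19.4, 25.2, 35.9 and 65.7 CPM in EA3. No EA2 library overlapped a library of the other lines. The log2 difference was 3.77 between EA2 and EA1 (standard error, SE, 0.28, adjusted p-value 6.93e-07), -2.69 between EA3 and EA2 (adjusted p-value 9.71e-06) and 1.08 between EA3 and EA1 (adjusted p-value 0.00714) by edgeR's test. The exons of Fgfr1 share 1.66% of their bases with Gm16159 on the other strand, and which strand was counted is not given in the sources used here.

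Pdgfrb, the receptor for PDGF-B and PDGF-D that is best known from pericytes and fibroblasts, was a transcript of EA1. The DMSO libraries of EA1 held 364, 211, 65 and 70 counts of Pdgfrb on days 1, 2, 3 and 5, those of EA2 held 0, 1, 0 and 0, and those of EA3 held none. The mean of 19.8 ± 14.9 CPM in EA1 stands against at most 0.146 CPM in a library of the other lines. The differences of EA2 and EA3 from EA1 passed (adjusted p-value 4.44e-06 and 7.47e-06 by edgeR), but their fitted sizes rest on counts at or under the floor.

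The collagen receptor gene Ddr1 was highest in EA3, with 185, 263, 294 and 302 CPM on days 1, 2, 3 and 5, against 99.4 to 169 CPM in EA1 and 80.4 to 121 CPM in EA2. All EA3 libraries lay above those of both other lines. Its log2 difference was 0.90 between EA3 and EA1 (adjusted p-value 0.00426) and 1.39 between EA3 and EA2 (adjusted p-value 0.000188). Met, the receptor for hepatocyte growth factor, was lower in EA1 than in EA2 (log2 difference 0.67, adjusted p-value 0.0213) and EA3 (log2 difference 0.90, adjusted p-value 0.00563), and its EA1 libraries overlapped those of both. Insr, the insulin receptor gene, was highest in EA1, with log2 differences of -0.92 for EA2 (adjusted p-value 0.000811) and -0.77 for EA3 (adjusted p-value 0.00331). Igf1r, the receptor gene for IGF1 and IGF2, was lower in EA2 than in EA1 (log2 difference -0.75, adjusted p-value 0.0223), and Axl was lower in EA3 than in EA1 (-0.63, adjusted p-value 0.0314) and EA2 (-0.78, adjusted p-value 0.0105). Fgfr3 did not pass between lines (adjusted p-value 0.112), with means of 1.48 ± 0.614, 0.432 ± 0.226 and 1.49 ± 1.59 CPM in EA1, EA2 and EA3. Without day 5, the number of receptors that differed between lines was 4 in place of 7, and the pairwise calls of Met between EA2 and EA1 (adjusted p-value 0.107) and of Axl between EA3 and both other lines (0.111 and 0.0556) were lost. Without day 1 or day 2, those of Igf1r between EA2 and EA1 (0.106 and 0.0843) and of Axl between EA3 and EA1 (0.0614 and 0.156) were lost, and without day 2 that of Axl between EA3 and EA2 (0.0527). With library size alone, the calls of Igf1r between EA2 and EA1 (0.0837) and Axl between EA3 and EA1 (0.0512) were lost. Without the day block, Met between EA2 and EA1 (0.116) and Axl and Insr between EA3 and EA1 (0.0713 and 0.0885) did not pass.

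With alectinib, the receptors that changed rose, and none fell past the threshold in any line when all days were used. Of the 9 receptors tested, 4 rose in EA1, 3 in EA2 and 7 in EA3. The EA3 number was 4 without day 2 and 4 without day 5. Without day 3, the number past the threshold was 4 in EA2 and 9 in EA3, in each of which Fgfr1 was lower. With genes limited to those with 10 counts or more per library, 6 receptors could be tested, of which 2 rose in EA1 and 4 in EA3, and with low-count genes kept 5 rose in EA2. Among all 14264 genes tested, 33.8% changed in EA1 (18% higher and 15.8% lower), 24.3% in EA2 (13% higher and 11.3% lower) and 32.3% in EA3 (16.5% higher and 15.8% lower). Met, Ddr1 and Fgfr2 passed in all 3 lines, Pdgfrb passed in EA1 and EA3, and Axl, Igf1r and Fgfr3 passed in EA3. The test between lines follows further on. With each line fitted alone, 2 of 6 receptors tested passed in EA2 and 5 of 8 in EA3. Fgfr2 in EA2 and Pdgfrb in EA3 were then too low to be tested, so both were kept through counts in other lines. Fgfr2 was too low in the DMSO libraries and could be tested only because it was higher with alectinib. Insr and Fgfr1 passed in no line, and Kit was too low to be tested. The median log2 fold change of the tested receptors was 0.57, 0.55 and 1.01 in EA1, EA2 and EA3, against medians of 0.03, 0 and 0.04 over all genes tested. Scaling by library size alone moved the median of all genes by 0.129 in EA1, -0.0444 in EA2 and 0.146 in EA3 on the log2 scale. It also raised the share of calls that were higher from 53.2% to 64.6% in EA1 and from 51% to 64.8% in EA3, while in EA2 the share went from 53.6% to 48.3%. In these bulk cultures, a change in the share of cells that express a gene and a change of RNA per cell cannot be told apart.

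**Figure D2:**
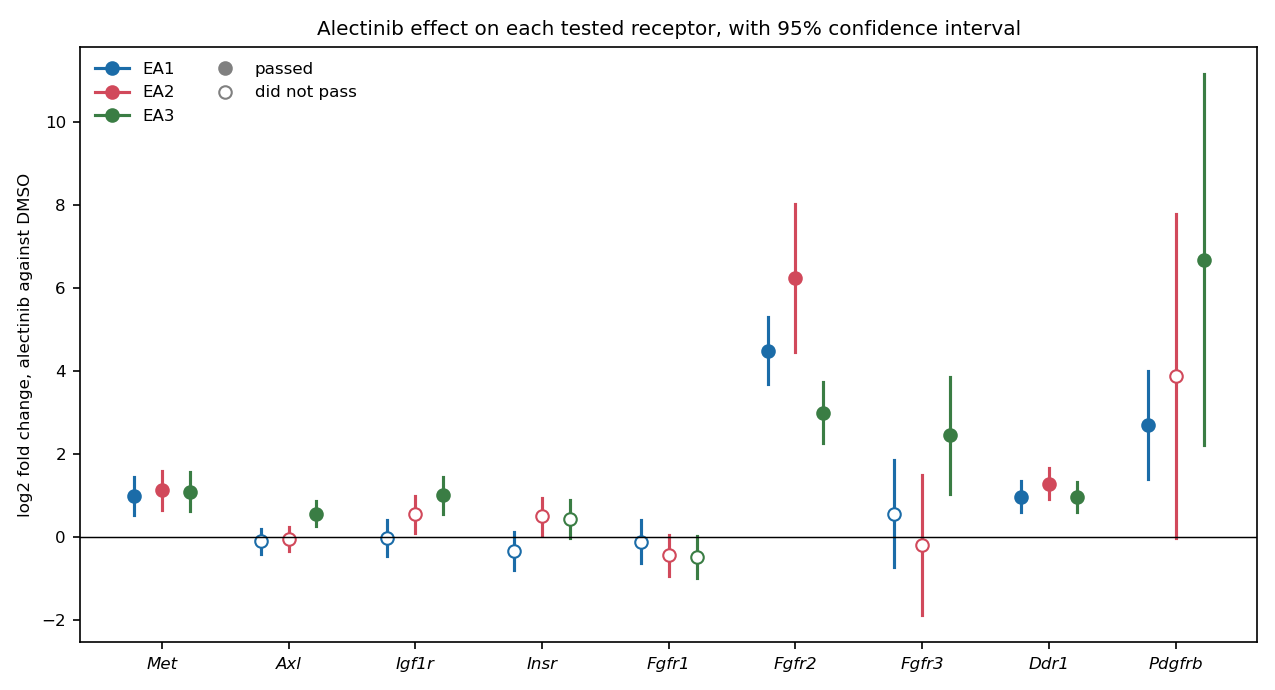
The log2 fold change of alectinib against DMSO is drawn for each of the 9 tested receptors in EA1, EA2 and EA3, with bars for the 95% confidence interval and filled points for an adjusted p-value under 0.05 (edgeR). Met and Ddr1 lie close to 1 in each line, and Fgfr2 lies at 4.49 in EA1 and 3.00 in EA3. The Fgfr2 point of 6.24 in EA2 rests on DMSO counts of 0 and is no bound. The intervals of Pdgfrb in EA2 and EA3 are wide, with few counts behind them.

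Met rose 2.00-fold in EA1, 2.19-fold in EA2 and 2.15-fold in EA3. In EA1 its levels on days 1, 2, 3 and 5 were 126, 79.1, 66.2 and 71.2 CPM in DMSO and 184, 157, 156 and 168 CPM in alectinib. In EA2 they were 142, 145, 103 and 134 CPM in DMSO and 254, 265, 272 and 355 CPM in alectinib. Every alectinib library of these lines lay above every DMSO library. In EA3 the DMSO levels were 253, 97.1, 154 and 139 CPM and the alectinib levels 359, 342, 230.4 and 399 CPM, so that the groups overlapped through the day 1 DMSO library and the day 3 alectinib library, although alectinib was higher on each of the 4 days. The log2 fold changes were 1.00 in EA1 (SE 0.21, adjusted p-value 0.0032), 1.13 in EA2 (SE 0.21, adjusted p-value 0.00179) and 1.10 in EA3 (SE 0.22, adjusted p-value 0.00192) by edgeR's quasi-likelihood test. Met lies on the forward strand of mouse chromosome 6 (mm10, 17463800 to 17573980).

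Ddr1 also rose in all 3 lines and stayed highest in EA3. Its product binds collagens rather than a soluble growth factor. In EA1 the DMSO levels on days 1, 2, 3 and 5 were 134, 154, 99.4 and 169 CPM and the alectinib levels 299, 270.2, 243 and 270.3 CPM. In EA2 they were 85.0, 80.4, 121 and 108 CPM in DMSO and 232, 229.7, 315 and 194 CPM in alectinib. In EA3, where DMSO levels reached 302 CPM, alectinib levels were 500.4, 595, 442 and 486 CPM. The groups did not overlap in any line. The log2 fold changes were 0.98 in EA1 (SE 0.17, adjusted p-value 0.000796), 1.30 in EA2 (SE 0.17, adjusted p-value 0.00012) and 0.97 in EA3 (SE 0.17, adjusted p-value 0.000858) by edgeR. A call that asks for a log2 fold change of at least 1 was not met by Ddr1 in EA1 and EA3. Ddr1 lies on the reverse strand of chromosome 17 (mm10, 35681567 to 35704621), and 4.52% of its exon bases are shared with Gm4577 on the other strand. Col1a1, a collagen gene on the fibroblast marker list, was higher with alectinib in the same cultures, with means of 4.2 CPM in DMSO and 42.0 CPM in alectinib for EA1, 0.849 and 6.29 CPM for EA2, and 12.6 and 132 CPM for EA3.

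The sequences before the start sites of Met and Ddr1 are shown because the same AP-1 letters lie in both. RefSeq promoter windows of GRCm38.p6, the assembly behind mm10, were available for 7 of the 10 receptors and gave 12 windows of the 250 bases before a start. They were searched on both strands for AP-1 (TGANTCA), FOXO (GTAAACA) and ETS (CCGGAAG) letters, which do not contain one another. AP-1 letters were found in 2 of the 12 windows, FOXO letters in 1 and ETS letters in none, against 6.75%, 3.17% and 6.91% of all 32851 promoters. The 12 windows are not independent, as Ddr1, Fgfr3 and Kit gave more than 1 each. Those of Kit, which begin at 75574737 and 75574741 on chromosome 5, nearly coincide. The other windows of Ddr1 held no AP-1 letters. Counted back from the start, the match begins at position -54 in Met and at position -151 from the third start of Ddr1, and the FOXO match of Axl begins at position -229. Capitals mark the letters searched for, here with 30 bases each, and the Met and Ddr1 stretches fall inside 5′ exons of other transcripts of these genes. The 30 bases after the RefSeq start of Axl lie in no GENCODE transcript of that gene.
Met (chr6:17463892-17463921, forward strand): tgttgcccggcTGAGTCAcgggccgggcag
Ddr1 (chr17:35702177-35702206, reverse strand): actgggcagtgTGAGTCAcgggcgtgaggg
Axl (chr7:25788944-25788973, reverse strand): ttctacaggaaTGTTTACcagaccctgaga
A match is a description of the letters and not of binding.

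**Figure D3:**
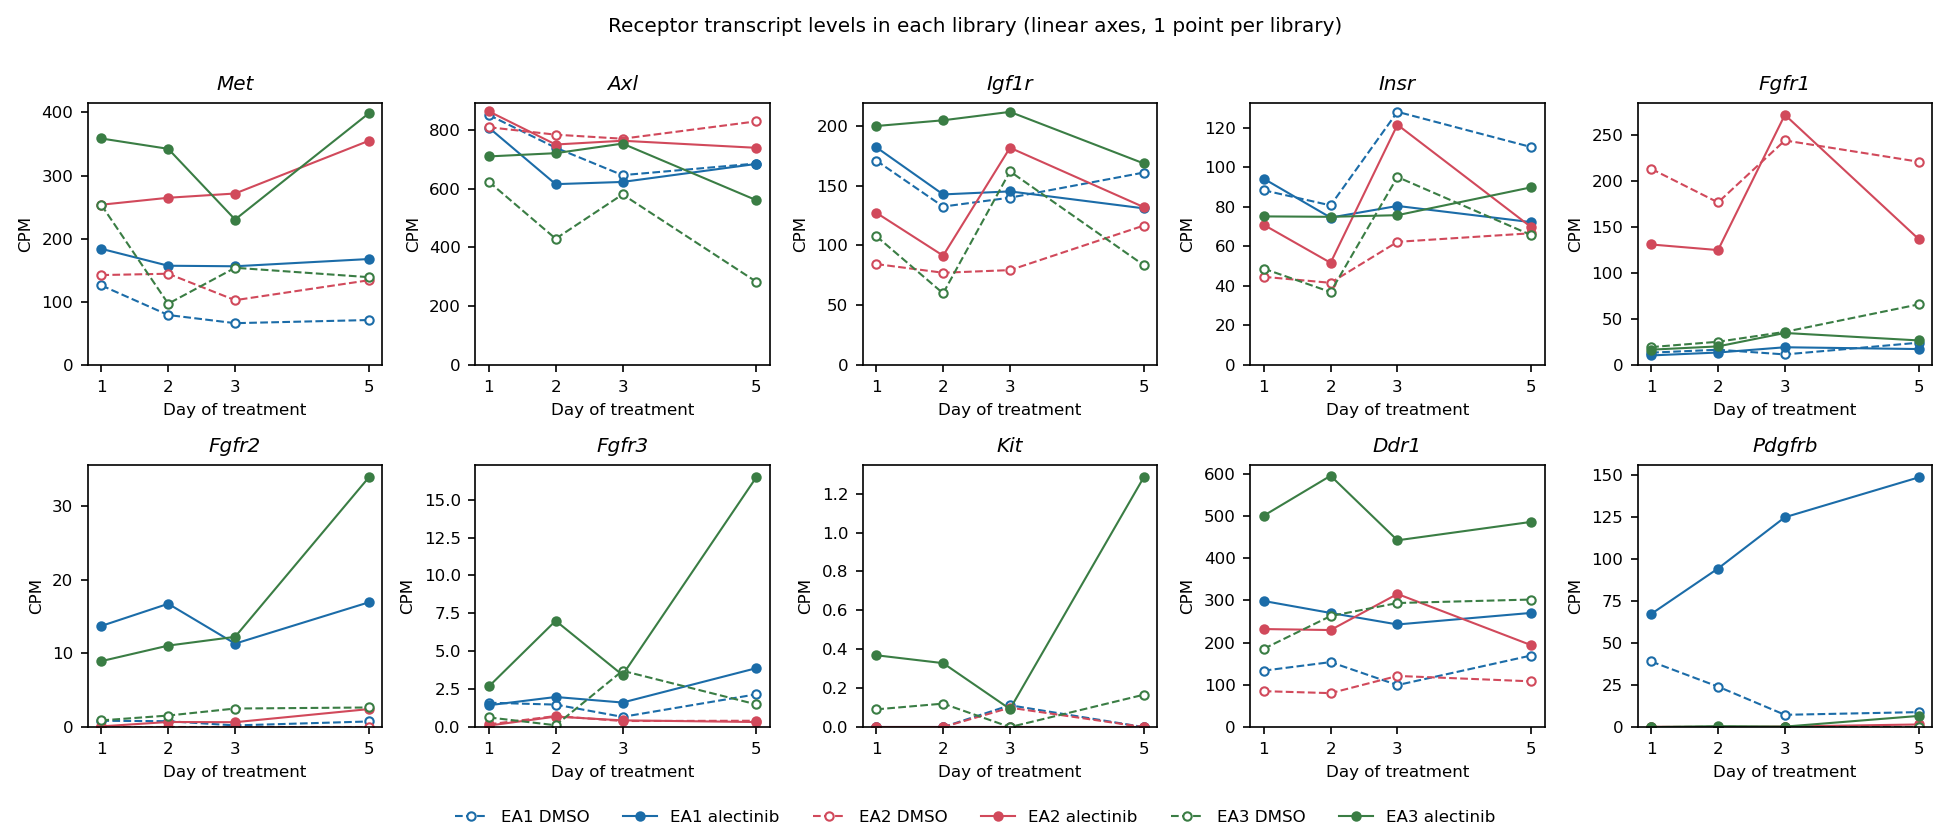
Each panel gives the CPM of 1 receptor on a linear axis against the day of treatment, with dashed lines and open points for DMSO and solid lines and filled points for alectinib. The alectinib lines of Ddr1 run above the DMSO line of the same line on every day (194 to 595 CPM against 80.4 to 302 CPM), Pdgfrb climbs to 148 CPM in EA1, and Fgfr2 reaches 33.9 CPM in EA3.

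Fgfr2 had the largest fold rise in EA1 and EA3 of the receptors with counts in both treatments. It encodes an FGF receptor whose splice forms answer to different FGFs, and counts per gene do not tell these forms apart. The DMSO libraries of EA1 held 8, 7, 2 and 6 counts of Fgfr2 on days 1, 2, 3 and 5, or 0.857, 0.798, 0.224 and 0.763 CPM, and the alectinib libraries held 143, 135, 112 and 205, or 13.7, 16.7, 11.3 and 16.9 CPM. In EA3 the levels were 0.911, 1.57, 2.52 and 2.66 CPM in DMSO and 8.96, 11.1, 12.3 and 33.9 CPM in alectinib. The rise was thus present by day 1 in both lines, and the groups lay far apart. In EA2 all 4 DMSO libraries held 0 counts, and the alectinib libraries held 1, 4, 6 and 22. Against a floor of 3 counts per DMSO library, the mean of 0.975 CPM in alectinib was at least 3.10-fold higher in EA2. The day 5 library carried most of that bound, which was 1.44-fold without day 5.

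The log2 fold change of Fgfr2 was 4.49 in EA1 (SE 0.36, adjusted p-value 1.52e-05, a 22.5-fold change) and 3.00 in EA3 (SE 0.33, adjusted p-value 0.000109, an 8.02-fold change) by edgeR. EA2 passed as well (adjusted p-value 0.000297), but its fitted value of 6.24 depends on how a DMSO count of 0 is treated and is no bound. With EA2 fitted alone, Fgfr2 was too low to be tested, so the EA2 call relied on counts in other lines to pass the filter. GENCODE places Fgfr2 on the reverse strand of chromosome 7 from 130162451 (mm10), and 3.04% of its exon bases are shared with Ctbp2 on the same strand. The 250 bases before its RefSeq start are printed because Fgfr2 rose in all 3 lines. The window overlaps no GENCODE exon and holds none of the letters searched for, which says nothing about the factors. The 30 bases after this RefSeq start lie in no GENCODE transcript of Fgfr2, so these gene models do not mark it as a start.
Fgfr2 (chr7:130266809-130267058, reverse strand): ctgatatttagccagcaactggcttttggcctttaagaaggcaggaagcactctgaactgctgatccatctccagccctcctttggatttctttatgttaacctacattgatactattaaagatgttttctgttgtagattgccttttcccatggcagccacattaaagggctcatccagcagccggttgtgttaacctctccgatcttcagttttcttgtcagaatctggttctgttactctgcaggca

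Fgfr1 did not rise with Fgfr2. Its means were 16.4 ± 5.59 CPM in DMSO and 15.1 ± 3.94 CPM in alectinib in EA1, 213 ± 27.9 and 166 ± 70.5 CPM in EA2, and 36.6 ± 20.6 and 24.5 ± 7.96 CPM in EA3. The groups overlapped in each line, and the 95% confidence intervals of the log2 fold change ran from -0.62 to 0.42 in EA1, from -0.92 to 0.05 in EA2 and from -0.98 to 0.03 in EA3. In EA2 the day 3 alectinib library, at 271 CPM, stood apart from the other 3, which lay between 125 and 137 CPM. Without day 3, Fgfr1 was lower in EA2 (log2 fold change -0.64, adjusted p-value 0.0499) and in EA3 (log2 fold change -0.61, adjusted p-value 0.0458).

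Fgfr3 was low in all lines. In EA3 its DMSO libraries held 7, 1, 28 and 9 counts on days 1, 2, 3 and 5 and its alectinib libraries 29, 64, 37 and 154. The groups overlapped through the day 3 DMSO library, and alectinib was higher on 3 of 4 days. The log2 fold change of 2.45 in EA3 (SE 0.66, adjusted p-value 0.0117) was lost without day 2 (1.72, adjusted p-value 0.0781), without day 5 (2.05, adjusted p-value 0.104), when EA3 was fitted alone (2.42, adjusted p-value 0.0557) and with all 26 libraries (1.77, adjusted p-value 0.0641). It did not pass in EA1 (0.57, adjusted p-value 0.476) or EA2 (-0.18, adjusted p-value 0.899). G630022F23Rik on the other strand shares 13.9% of the exon bases of Fgfr3, so its counts are uncertain.

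The make-up of the FGF receptor transcripts differed with treatment in EA1 and EA3. Per exon length, Fgfr2 was 3.31% ± 1.45 of the summed level of Fgfr1, Fgfr2 and Fgfr3 in the DMSO cultures of EA1 and 44.1% ± 8.21 in alectinib. In EA3 its share was 4.71% ± 0.998 in DMSO and 29.6% ± 7.25 in alectinib. The shares did not overlap between treatments, with a highest DMSO library of 4.99% in EA1 and 5.58% in EA3 against lowest alectinib libraries of 33.6% and 22.9%. In EA2, Fgfr1 remained 99.0% of the sum in alectinib on average, with a lowest library of 97.99%. For EA1 the summed level was 1.93 ± 0.657 CPM per kilobase in DMSO and 3.26 ± 0.552 in alectinib, for EA2 21.7 ± 2.81 and 16.9 ± 7.13, and for EA3 4.10 ± 2.23 and 5.12 ± 2.30, so that in alectinib EA2 still held the most FGF receptor transcript.

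**Figure D4:**
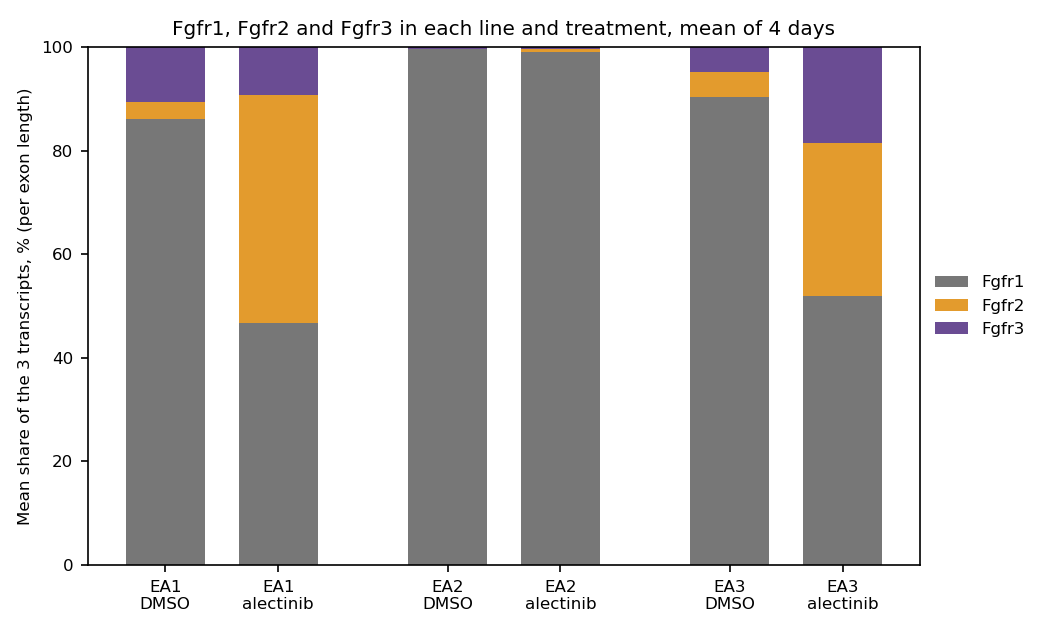
Stacked bars give the mean share over 4 days of Fgfr1, Fgfr2 and Fgfr3, as CPM per kilobase of exons, in the DMSO and alectinib cultures of each line. The Fgfr2 share goes from 3.31% to 44.1% in EA1 and from 4.71% to 29.6% in EA3, and Fgfr1 fills almost the whole bar in EA2 (99.7% and 99.0%).

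Pdgfrb gained the most CPM in EA1, the line that expressed it before drug, while its ratios in EA2 and EA3 start from counts at or near 0. Its DMSO levels in EA1 were 39, 24.1, 7.30 and 8.90 CPM on days 1, 2, 3 and 5, and its alectinib levels were 67.2, 94.3, 125 and 148 CPM. The groups did not overlap, and the gap was wider on later days, as the DMSO level went down while the alectinib level went up. The log2 fold change was 2.71 (SE 0.58, adjusted p-value 0.00607 by edgeR), and it was not past the threshold with DESeq2 (2.77, adjusted p-value 0.0554) or without day 3 (2.19, adjusted p-value 0.057).

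In EA3 no DMSO library held a count of Pdgfrb, and the alectinib libraries held 0, 5, 3 and 62. The mean alectinib level of 1.86 CPM was at least 4.87-fold higher than the floor of 3 counts per library, and edgeR called the difference (adjusted p-value 0.0285). That call rested on day 5, without which the mean of 0.275 CPM lay under the floor and the adjusted p-value was 0.265. It was also lost without day 2 (0.0855), where the bound was 5.91-fold. With EA3 fitted alone, Pdgfrb was too low to be tested, so the call also relied on its counts in other lines to pass the filter. In EA2 the sums were 1 count in DMSO and 19 in alectinib, of which 14 were on day 5, a ratio of 22.4 with an exact 95% counting interval of 3.56 to 929.6. EA2 did not pass (adjusted p-value 0.14 by edgeR), but it passed when genes with low counts were not removed (adjusted p-value 2.51e-05).

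Markers of pericytes and smooth muscle were higher in sum in the alectinib cultures of EA1 and EA2, and their range overlapped between treatments in EA3. The summed level of the 8 genes of that list in EA1 ran from 28.3 to 142 CPM in DMSO and from 668 to 1402 CPM with alectinib, in EA2 from 2.68 to 3.29 CPM in DMSO and from 50.3 to 1286 CPM with alectinib, and in EA3 from 4.37 to 29.4 CPM in DMSO and from 12.6 to 58.3 CPM with alectinib. Of the 5 that could be tested, Rgs5, Acta2 and Myh11 rose in EA1, and Acta2 was the one called in EA2 and in EA3, while 18%, 13% and 16.5% of all genes were called higher in EA1, EA2 and EA3. Cspg4 and Notch3 passed in no line. Rgs5 and Acta2 carried most of the sum in EA1, while Acta2 alone did so in EA2. The pericyte potassium channel genes Kcnj8 and Abcc9 stayed at or under 3 counts in each library. The 9 fibroblast markers summed to 2.24 to 7.64 CPM in DMSO and 58.1 to 324 CPM in alectinib in EA1, to 57.0 to 71.2 and 119 to 241 CPM in EA2, and to 10.3 to 20.5 and 84.9 to 276 CPM in EA3. Of these 9 genes 5 could be tested, and 4 rose in EA1, 3 in EA2 and 4 in EA3, beside the same shares of all genes. Among the untested 4, Lum was at 0 in the DMSO libraries of all 3 lines and reached 41 counts with alectinib in EA1, Postn went from at most 3 counts in DMSO to 117 with alectinib in EA3, Dpt reached 8 counts in EA1, and Thy1 stayed at or under 3 counts. Epithelial markers changed in both directions. The summed level of these 8 genes ran from 4790 to 9159 CPM in DMSO and from 3209 to 5397 CPM with alectinib for EA1, from 1818 to 2684 CPM and from 561 to 1176 CPM for EA2, and from 5367 to 7942 CPM and from 3556 to 8522 CPM for EA3. Of the 7 tested, Krt18 fell in all 3 lines (log2 fold changes -1.55, -1.79 and -1.16, adjusted p-value 0.00323, 0.00146 and 0.0152) and Krt8 fell in EA2 (-2.61). Epcam rose in EA1 (2.41), Cdh1 rose in EA2 and EA3 (1.55 and 0.62) and Krt7 rose in EA2 (3.30, from at most 4 counts in a DMSO library). The part of these 3 marker lists in the changes of the receptors was not tested.

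Axl passed in EA3, where its DMSO level was lowest, and in neither of the other lines. The DMSO levels of EA3 were 624, 429.5, 580.3 and 283 CPM on days 1, 2, 3 and 5, and the alectinib levels were 709.6, 720.6, 753 and 561 CPM. The groups overlapped, and alectinib was higher on each of the 4 days. The log2 fold change was 0.57 (SE 0.14, adjusted p-value 0.00681), and it was lost without day 2 (0.50, adjusted p-value 0.0805) and, narrowly, without day 5 (0.47, adjusted p-value 0.0509). In EA1 the mean was 730.2 ± 88.8 CPM in DMSO and 682 ± 88.9 CPM in alectinib (log2 fold change -0.10, 95% confidence interval -0.39 to 0.20). In EA2 it was 798 ± 26.3 and 779 ± 57.0 CPM (log2 fold change -0.04, 95% confidence interval -0.33 to 0.26). With alectinib the lines thus came to lie closer, at means from 682 to 779 CPM.

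Igf1r rose in EA3 as well, by 1.01 on the log2 scale (SE 0.21, adjusted p-value 0.00241). Its DMSO levels there were 108, 59.9, 162 and 83.5 CPM on days 1, 2, 3 and 5, and its alectinib levels were 199.9, 205, 212 and 169 CPM. The groups did not overlap. In EA2 the means were 89.4 ± 18.4 CPM in DMSO and 133 ± 37.1 CPM in alectinib, higher on 4 of 4 days, and the log2 fold change of 0.55 missed the threshold (adjusted p-value 0.0656 by edgeR). In EA1 they were 151 ± 17.9 and 150.3 ± 22.1 CPM, with a 95% confidence interval of the log2 fold change from -0.44 to 0.42.

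Insr, whose product forms hybrids with that of Igf1r, did not pass in any line. Its log2 fold changes were -0.33 in EA1 (adjusted p-value 0.243), 0.50 in EA2 (adjusted p-value 0.101) and 0.44 in EA3 (adjusted p-value 0.128). In EA3 the DMSO level ran from 36.9 to 95.1 CPM and the alectinib level from 74.9 to 89.9 CPM, and the day 3 DMSO library was the highest of the 8. Insr passed in EA3 without day 3 (0.71, adjusted p-value 0.0223) and with library size alone (0.59, adjusted p-value 0.0356).

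Kit, the receptor for stem cell factor in mast cells and melanocytes, was close to absent. EA1 and EA2 held at most 1 count in a library, under the floor of 3 counts. In EA3 the DMSO libraries held 1, 1, 0 and 1 counts on days 1, 2, 3 and 5 and the alectinib libraries 4, 3, 1 and 12, which gave a ratio of 5.46 with an exact 95% counting interval of 1.62 to 28.7. The mast cell genes Cpa3, Tpsb2 and Fcer1a were at 0 in every library of EA3, and a further mast cell gene, Mcpt4, held at most 1 count in DMSO and 5 in alectinib there. Mcpt4 reached 156 counts in an alectinib library of EA1, where Kit held at most 1.

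The effect of alectinib was compared between the lines by a test with 2 degrees of freedom. On simulated counts this test recovered 12 of 100 genes given a log2 difference of 1 and 79 of 100 given 2. It thus misses most differences of 1. None of the 9 receptors passed, while 7.05% of all genes did, and 5 receptors had an unadjusted p-value under 0.05. The nearest were Fgfr2 (adjusted p-value 0.0547), Axl (0.0724) and Igf1r (0.0925), followed by Insr (0.14) and Fgfr3 (0.197), by edgeR's quasi-likelihood test. DESeq2 called 2, Axl (adjusted p-value 0.00464) and Igf1r (0.0469). For Axl the log2 fold change in EA3 lay 0.67 above that in EA1 (95% confidence interval 0.25 to 1.09) and 0.61 above that in EA2 (0.19 to 1.03). For Igf1r the difference between EA3 and EA1 was 1.02 (0.40 to 1.64). For Fgfr2 the rise in EA3 was smaller than in EA1 by 1.49 (95% confidence interval of the difference -2.54 to -0.44). For Met, the intervals of the 3 pairwise differences ran from -0.67 to 0.77, and for Ddr1 from -0.84 to 0.82, so that differences of that size are not excluded.

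**Figure D5:**
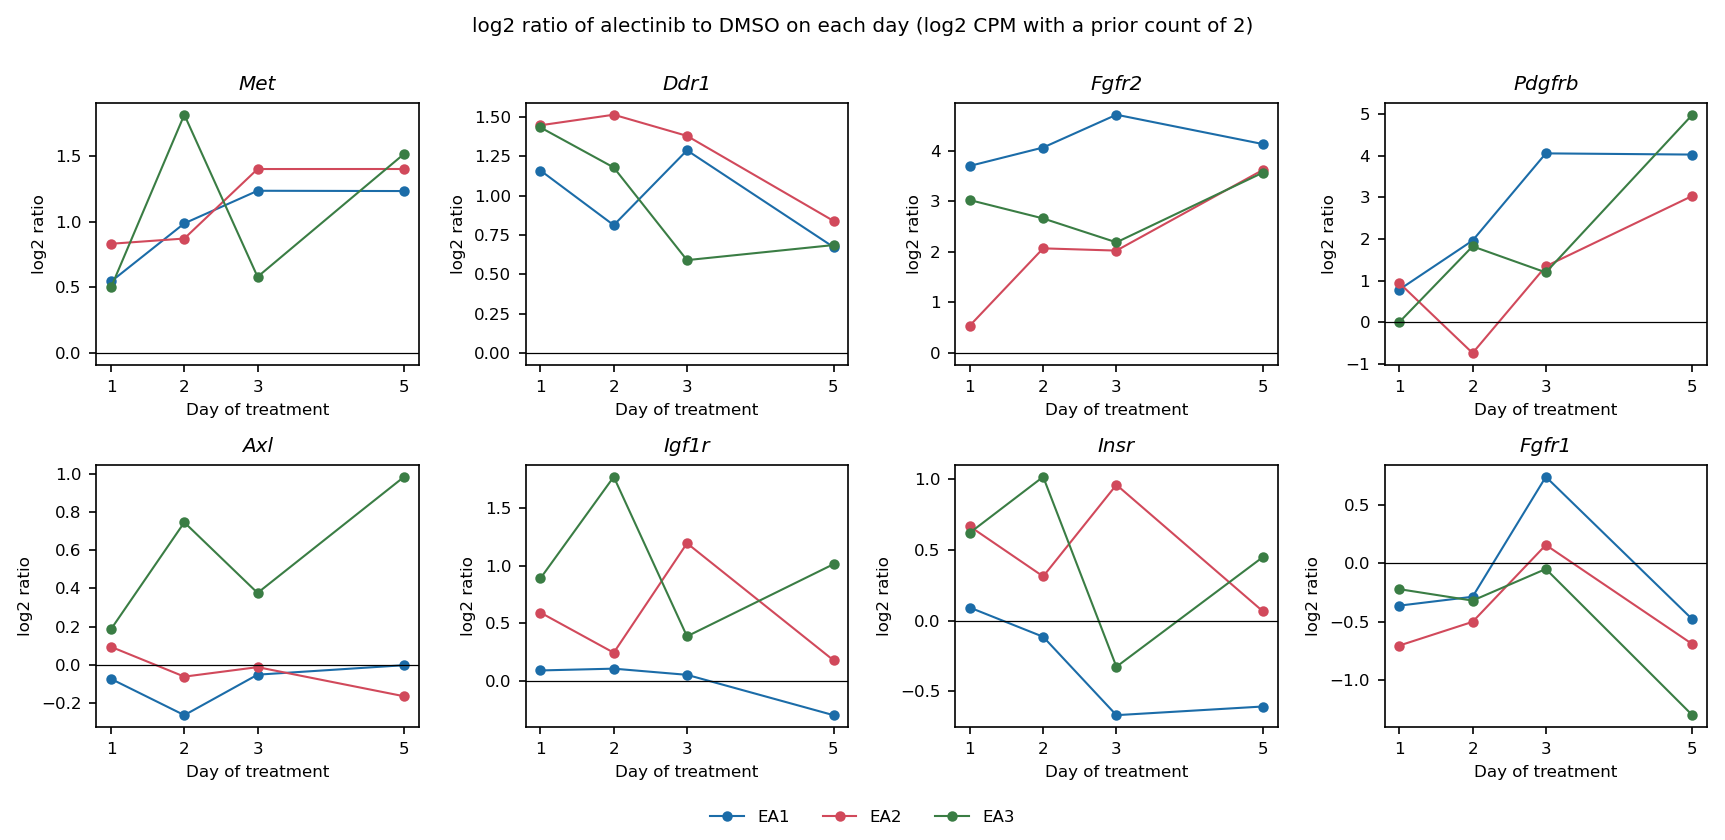
Each panel gives, for 1 receptor, the log2 ratio of alectinib to DMSO against the day of treatment, from log2 CPM with a prior count of 2, with 1 line of points per cell line. Met, Ddr1 and Fgfr2 lie above 0 on every day in each line, Pdgfrb in EA1 goes from 0.78 on day 1 to 4.03 on day 5, and Axl lies above 0 in EA3 and at or just under 0 in EA1.

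Over days, no receptor passed in any line when the alectinib effect was tested against the log2 of the day. Among all genes 0.021% passed in EA1, 0% in EA2 and 0.0631% in EA3, so this test found little anywhere. Of the 9 receptors, 1 had an unadjusted p-value under 0.05 in EA1, none in EA2 and 1 in EA3. These were Pdgfrb in EA1, whose effect grew by 1.56 per log2 unit of day (SE 0.36, unadjusted p-value 0.00216 and adjusted p-value 0.198 by edgeR), and Ddr1 in EA3, whose effect shrank (-0.37, adjusted p-value 0.38). DESeq2 called Pdgfrb in EA1 (1.54, adjusted p-value 0.00408) and no other receptor. The daily log2 ratio of Pdgfrb in EA1 was 0.78, 1.96, 4.06 and 4.03 on days 1, 2, 3 and 5. That of Met was lowest on day 1 in each line, at 0.55 in EA1, 0.83 in EA2 and 0.50 in EA3.

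The DMSO level was also tested over days. With 1 slope common to the lines, Pdgfrb was the only receptor of the 8 tested to pass (-0.98 per log2 unit of day, SE 0.29, adjusted p-value 0.0394), where 17.1% of all genes did. Its slope comes from EA1, the line with counts, and the call was lost without day 1, day 2 or day 5 (adjusted p-value 0.395, 0.0844 and 0.16) and with day in place of log2 day (0.0653). Fgfr1 missed the threshold narrowly (0.37 per log2 unit of day, adjusted p-value 0.0531). It passed with day in place of log2 day (0.0397), DESeq2 (0.0245), the DESeq2 size factors (0.0467), low-count genes kept (0.0137), genes limited to those with 10 counts or more per library (0.043) and without day 3 (0.0387). In EA3 its DMSO level went from 19.4 CPM on day 1 to 65.7 CPM on day 5.

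Several ligands of these receptors changed with alectinib. Of 28 ligand genes, 13 could be tested, with 7 higher and 1 lower in EA1, 2 higher and 3 lower in EA2, and 6 higher and 1 lower in EA3. The shares called higher were 53.8%, 15.4% and 46.2%, beside 18%, 13% and 16.5% of all genes, and the shares called lower were 7.69%, 23.1% and 7.69%, beside 15.8%, 11.3% and 15.8%. Igf1, a ligand of the Igf1r product, rose in all 3 lines, from 0.806 ± 0.218 to 35.6 ± 15.1 CPM in EA1 (log2 fold change 5.37, adjusted p-value 3.80e-06), from 0.286 ± 0.126 to 4.56 ± 3.97 CPM in EA2 (from 1 to 5 counts per DMSO library, adjusted p-value 7.31e-05) and from 0.519 ± 0.164 to 4.27 ± 0.582 CPM in EA3 (log2 fold change 2.96, adjusted p-value 0.000192). Hgf, the Met ligand, held at most 3 counts in any DMSO library and rose in EA1 to 12.5 ± 10.2 CPM (adjusted p-value 0.000159) and in EA2 to 1.09 ± 0.794 CPM (adjusted p-value 0.0046), and in EA3 it reached 0.755 ± 1.07 CPM (adjusted p-value 0.0563). With DMSO counts at or under the floor, no fold is given for Hgf. Fgf2 fell in all 3 lines, with a log2 fold change of -1.70 for EA1, -1.97 for EA2 and -1.94 for EA3 (adjusted p-value 0.00033, 0.000387 and 0.000173). Fgf1 fell in EA2 from 5.73 ± 1.71 to 0.982 ± 1.41 CPM (log2 fold change -2.94, adjusted p-value 0.00434) and did not pass in EA1 or EA3 (0.84 and 0.38). Gas6, the Axl ligand, was called higher in EA1 and EA3 and was named after its values were seen (1.69, adjusted p-value 0.0354, and 2.43, adjusted p-value 0.00604).

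Adaptors and attenuators of receptor signaling moved both ways. Of 24 such genes, 23 could be tested, and 6 rose and 6 fell in EA1, while 4 rose and 5 fell in EA2 as in EA3, with median log2 fold changes of 0.09, -0.07 and -0.04. The shares called higher were 26.1% in EA1 and 17.4% in both EA2 and EA3, beside 18%, 13% and 16.5% of all genes. The share in EA3 was thus near that of all genes. The shares called lower were 26.1%, 21.7% and 21.7%, beside 15.8%, 11.3% and 15.8% of all genes. Gab1, the docking adaptor that Met recruits, rose in all 3 lines (log2 fold changes 1.22, 2.12 and 1.86, adjusted p-value 0.000306, 8.67e-06 and 2.42e-05). Irs2, which couples the Insr and Igf1r products to PI3K, rose in EA1 from 9.83 ± 2.64 to 50.7 ± 9.28 CPM and in EA2 from 31.8 ± 4.38 to 193 ± 62.3 CPM (log2 fold changes 2.39 and 2.56) and did not pass in EA3 (0.50, adjusted p-value 0.118). Errfi1, an inhibitor of ERBB receptors that is induced by MAPK signaling, fell in all 3 lines by 1.28, 1.97 and 1.38 on the log2 scale. Socs3, a feedback inhibitor of cytokine signaling, fell as well, by 0.86, 1.62 and 2.37.

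The IGF-binding genes showed a mixed pattern, with 7 of 9 tested, of which 3 rose and 1 fell in EA1, 1 rose and 2 fell in EA2, and 3 rose and 3 fell in EA3. The called shares were 57.1%, 42.9% and 85.7%, beside the 33.8%, 24.3% and 32.3% of all genes. Igfbp7 rose in each line (log2 fold changes 0.82, 1.94 and 1.99, adjusted p-value 0.029, 0.000311 and 0.000181). Igfbp2 was at 0 counts in all DMSO libraries and reached 2 to 637 counts in EA1, 0 to 1 in EA2 and 0 to 22 in EA3. Igfbp3, the main carrier of IGFs in blood, fell in EA1 (-2.28, adjusted p-value 0.00473) and EA3 (-3.23, adjusted p-value 0.000844), and Igfbp4 fell in EA2 (-2.93, adjusted p-value 7.81e-05) and EA3 (-0.94, adjusted p-value 0.0473). Igfbp5, named after its values were seen, rose in EA1 (3.95, adjusted p-value 0.000895) and fell in EA2 (adjusted p-value 0.0134), to at most 1 count in an alectinib library.

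Of 10 close relatives of the receptors, 7 could be tested, with none called in EA1, 2 lower in EA2 (Mertk and Flt3) and 1 higher in EA3 (Ddr2). The called shares of 0%, 28.6% and 14.3% stand beside 33.8%, 24.3% and 32.3% of all genes. Ddr2, the second collagen receptor gene, had log2 fold changes of 0.62 in EA1 (adjusted p-value 0.129), -0.79 in EA2 (adjusted p-value 0.0826) and 1.05 in EA3 (adjusted p-value 0.0408). Mertk, related to Axl, fell in EA2 from 5.00 ± 3.06 to 1.06 ± 1.37 CPM (-2.64, adjusted p-value 0.0158). Flt3 held at most 5 counts in an alectinib library and was named after its values were seen. Among 21 other receptor tyrosine kinases, 14 could be tested, 2 of them higher and 2 lower in EA1. EA2 had 1 higher and 5 lower, and EA3 had 4 higher and 3 lower, which made called shares of 28.6%, 42.9% and 50% in the 3 lines. The orphan kinase Styk1 fell in each line (-1.14, -2.09 and -1.43), Flt1 fell in EA2 (-1.45) and EA3 (-2.11), Ror1 rose in EA1 (from 0 to 2 counts per DMSO library to 7 to 22 with alectinib) and EA3 (3.04), and Ryk rose in EA2 (0.63) and EA3 (0.55). Flt4, also named after its values were seen, fell in EA2 (-3.00) and rose in EA3 (1.18).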

How the data were processed

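Per the labels and the study's methods, stranded polyA libraries were read as 2x151 bp pairs, and the authors checked reads with FastQC, mapped them to mm10 with STAR and deposited unnormalized counts per gene. Tool versions, annotation and counting strand are not given in the sources used here. All 26 columns matched a sample title. Of the 55415 rows, 24 named no gene, took 0.129% to 0.201% of the counts per library and were dropped. Gene models came from GENCODE vM21.

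Counts were analysed with edgeR 4.0.16 in R 4.3.3 (TMM, filterByExpr by line and treatment, robust quasi-likelihood fit, Benjamini-Hochberg adjustment over all genes tested). The 24 libraries entered 1 fit with 12 line and day blocks and an alectinib effect per line. The pairing comes from the shared line and day in the labels, and across genes the deviations of each such pair from the means of its groups had correlations from -0.3 to 0.549. The 12 DMSO libraries were fitted separately, with day as a block or with 1 slope on log2 day. Exact binomial intervals for ratios of summed counts came from scipy 1.17.1. The calculations were tested on simulated counts. All 10 receptors are named, and from each gene list the 2 largest rises and 2 largest falls by the mean of the 3 lines' log2 fold changes, among genes called in at least 1 line with an average log2 CPM of at least 1. The receptors, lists and tests were chosen with earlier results of these data known. Alternatives were DESeq2 1.42.0, its size factors, library size alone, no filter, at least 10 counts in every library, each day left out, no block, each line alone, 26 libraries, a log2 fold change of at least 1 and day in place of log2 day.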

Additional observations from a re-analysis of the deposited data

Results flagged for a closer look

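Several libraries stood apart from the other 3 days of their line and treatment, by a gap to the nearest value that was larger, for the group's range, than Dixon's 95% limit, which chance alone gives in about 1 of 20 groups. Of 52 groups with more than 3 counts in a library, 5 passed that limit, where chance would give about 2.6. On day 5 of alectinib in EA3, Fgfr2 was at 33.9 CPM, Pdgfrb at 6.63 CPM and Insr at 89.9 CPM, each the highest of its group. Fgfr1 was at 271 CPM on day 3 of alectinib in EA2. Fgfr2 was at 0.224 CPM, or 2 counts, on day 3 of DMSO in EA1.

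The daily ratio of Axl was above 0 on each of the 4 days in EA3 and below 0 on each in EA1, where the log2 fold change was -0.10. The test between lines gave an adjusted p-value of 0.0724 by edgeR for Axl, so that the difference did not pass.

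The pair labelled EA3 day 7 was not used in the comparisons. Its alectinib library held more Met (252 against 90.5 CPM in its DMSO library), Ddr1 (177 against 95.9 CPM), Fgfr2 (4.32 CPM, 51 counts against 0) and Pdgfrb (5.93 CPM, 70 counts against 0), each beyond the exact 95% counting intervals of the pair. Fgfr1 was lower in its alectinib library (142 against 252 CPM), as was Insr (55.0 against 86.4 CPM), and Axl was at 649.5 against 694 CPM and Igf1r at 119 against 115 CPM. With 1 library per treatment there is no test of these differences.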

How the results depend on the processing

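The number of receptors past the threshold moved by more than 1.5 times for at least 1 comparison with DESeq2, its size factors, no filter, at least 10 counts in every library and each day left out, and most often for the DMSO level over days. With at least 10 counts in every library, 6 receptors could be tested and 2 passed in EA1 and 4 in EA3. Without a filter on low counts, 5 passed in EA2 (Igf1r and Pdgfrb in addition), 4 between lines in the alectinib effect (Fgfr2, Fgfr3, Igf1r and Pdgfrb) and 2 over days in DMSO. DESeq2 called 2 receptors between lines, 1 for the effect over days and 2 over days in DMSO, where its size factors in edgeR also gave 2. Leaving out each day in turn gave between 4 and 9 receptors in EA3, between 4 and 7 for the DMSO level between lines, and between 0 and 2 over days in DMSO. Without the line and day block, 4, 3 and 7 receptors passed in EA1, EA2 and EA3, 0 between lines, and 5 for the DMSO level between lines. The cause of these moves was not tested, and some of these settings also held fewer genes or libraries.

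Direction reversed only for log2 values that did not pass. In EA1, Axl was 0.030 and Fgfr1 0.024 with library size alone, and Igf1r was 0.0122 with DESeq2, 0.0122 with its size factors, 0.118 with library size alone and 0.059 with at least 10 counts. The Insr difference between EA3 and EA2 in DMSO was -0.0091 with library size alone. Without single days, Igf1r in EA1 ran from -0.082 to 0.093, Fgfr1 in EA1 from -0.401 to 0.041 and Axl in EA2 from -0.079 to 0.011. In DMSO, Fgfr3 between EA3 and EA1 ran from -1.34 to 0.20, Igf1r between EA3 and EA2 from -0.19 to 0.34, Insr between the same lines from -0.041 to 0.202, and Met over days from -0.462 to 0.084. Depth limits Kit in all lines, Fgfr2 and Fgfr3 in EA2, and Pdgfrb in EA2 and EA3.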
